A study of Glycine max with 6 samples.

Results

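The 1162 regions of soybean chromosome 13 described here each held a peak in all 4 libraries in which chromatin was immunoprecipitated with antibodies to the protein GLYMA.04G093300. They are 1162 of the 15473 regions of the genome with a peak in all 4 libraries, called shared regions. Peak intervals of the 4 lists that had at least 1 base in common were merged, and a merged region was shared when every list had a peak in it. Members were chosen by the presence of a peak in each list, and chromosome 13 was selected on its density of shared regions, the highest of the 20 chromosomes. That density was 25.3 per Mb, against 22.8 on chromosome 11, the next, and a median of 14.7 on the other 19. These values are given as a description with no test. The same holds for fold enrichment, length and spacing, which come from the same peaks.

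The 4 libraries came from early maturation embryos of the cultivar Williams 82, grown in a greenhouse with no other treatment named. Anti-peptide 1 (Ab1) was used on replicates 1 and 2, and anti-peptide 2 (Ab2) on replicates 1 and 2, which the design text calls biological. The 2 input libraries, total chromatin with no antibody, had no peak list in the files used here. No control immunoprecipitate of another antibody was among the samples, so unspecific precipitation and binding of the protein cannot be told apart, and the sources used here name no genome build for the coordinates.

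Chromatin immunoprecipitation and sequencing finds stretches of the genome that are pulled down with a protein after crosslinking, and a peak is a place where the recovered fragments pile up above the local background. In early maturation the soybean embryo ends most of its cell division and begins to store protein and oil. The chromosomes of soybean are built of gene-rich arms and of gene-poor, repeat-rich and rarely recombining stretches around the centromere, and chromosome 13 is known for carrying the nucleolus organizer, the array of ribosomal RNA genes. No gene annotation of the files' build was used here, so the regions are described by position and not by gene.

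Shared regions ran along most of chromosome 13 in a single long stretch and were nearly absent from its beginning. In bins of 1 Mb, the 3 bins from the start to 3 Mb held 6, 9 and 5 shared regions. From 3 to 10 Mb there was 1 shared region in 7 Mb, and from 10 to 13 Mb there were 13. The 33 bins from 13 Mb to the last peak at 45873873 held the other 1128, or 97.1% of the members, at 34.3 per Mb. The first 13 Mb together held 34 members at 2.62 per Mb.

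The long stretch was not evenly filled. It opened with 9 shared regions from 13 to 14 Mb, 21, 22 and 26 in the next 3 bins, 18 from 17 to 18 Mb and 8 from 18 to 19 Mb. From 20 to 23 Mb the bins held 44, 49 and 44, and the next bin, from 23 to 24 Mb, held 15. Between 24 and 34 Mb counts lay between 19 and 47. The fullest bins of the chromosome followed, with 55 from 34 to 35 Mb, 50 from 35 to 36 Mb and 57 from 38 to 39 Mb. The last 11.9 Mb, from 34 Mb on, held 510 members at 43.0 per Mb, and the last bin, which is 0.874 Mb wide, held 29.

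The bin from 23 to 24 Mb differed from its neighbours more in shared regions than in all regions. It held 112 merged regions of any kind, of which 15 (13.4%) were shared, against 44 of 173 (25.4%) in the bin before it and 38 of 143 (26.6%) in the bin after it. The lists had 95 and 77 peaks of Ab1 replicates 1 and 2 there and 34 and 22 peaks of Ab2 replicates 1 and 2. In the bin before it they had 160 and 111 Ab1 peaks and 83 and 59 Ab2 peaks. Both antibodies thus had fewer peaks in this bin than in the one before it, and in proportion the decrease was larger with Ab2.

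The 4 lists drew the same profile. Over the 46 bins, the number of peaks per bin correlated between libraries with a Pearson r of 0.983 to 0.993 and a Spearman rho of 0.974 to 0.990, which is a description across bins, and libraries of the same replicate number share their chromatin. From 3 to 10 Mb, Ab1 replicates 1 and 2 had 16 and 7 peaks and Ab2 replicates 1 and 2 had 6 and 5, so this stretch was sparse in each list and not only in the regions that all lists had in common. Of the 18 merged regions there, 1 was shared.

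**Figure D1:**
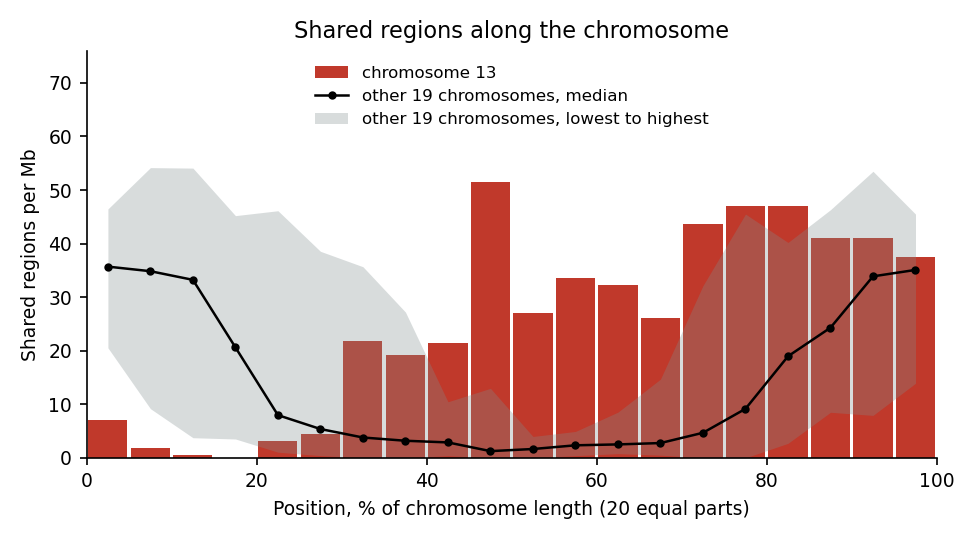
Shared regions per Mb (vertical axis) in 20 equal parts of the chromosome's length (horizontal axis, %), for chromosome 13 (bars) and for the other 19 chromosomes (line, median; band, lowest to highest). Chromosome 13 is lowest of all in the first 4 parts and above every other chromosome in the 9 parts from 40 to 85% of its length.

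The profile of the other 19 chromosomes differed at the start and in the interior, and at the last end both were dense. Divided into 20 equal parts, their median density was 35.7 shared regions per Mb in the first part, 1.25 in the part from 45 to 50% of the length and 35.1 in the last part. Chromosome 13 had 6.98 per Mb in its first part, 51.4 from 45 to 50% and 37.5 in the last part. The part from 45 to 50%, its densest, was at most 12.98 per Mb on any other chromosome. In each of the 9 parts from 40 to 85% of its length chromosome 13 was above all the others, and in the first 4 parts it was below all of them.

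Of the members, 34.7% (95% Wilson interval 32.0 to 37.5) lay in the outermost 20% at either end of the chromosome, where an even spread would put 40%. On the other chromosomes the same share was 61.8% on chromosome 11 at the lowest and 87.1% on chromosome 4 at the highest, with a median of 74.6%. The 2 ends of chromosome 13 were unlike, with 21 members in the first 20% of the length and 382 in the last 20%, and 759 (65.3%) in the middle 60%. In that middle part chromosome 13 had 27.6 shared regions per Mb, against 6.31 as the median of the other chromosomes and 14.5 on chromosome 11, the highest of them. In the outer parts it had 22.0 per Mb and was the lowest of the 20, against a median of 30.0 and a range of 22.5 to 35.3. That outer value joins a thin first end and a dense last end, whose 4 parts from 80 to 100% of the length had 47.1, 41.0, 41.0 and 37.5 per Mb, against medians of 18.96, 24.3, 33.9 and 35.1 on the other chromosomes. A one-sided spread was not particular to chromosome 13. The first 50% of the length held 25.7% of its members, and on the others this share ran from 17.4% on chromosome 20 to 81.1% on chromosome 15.

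**Figure D2:**
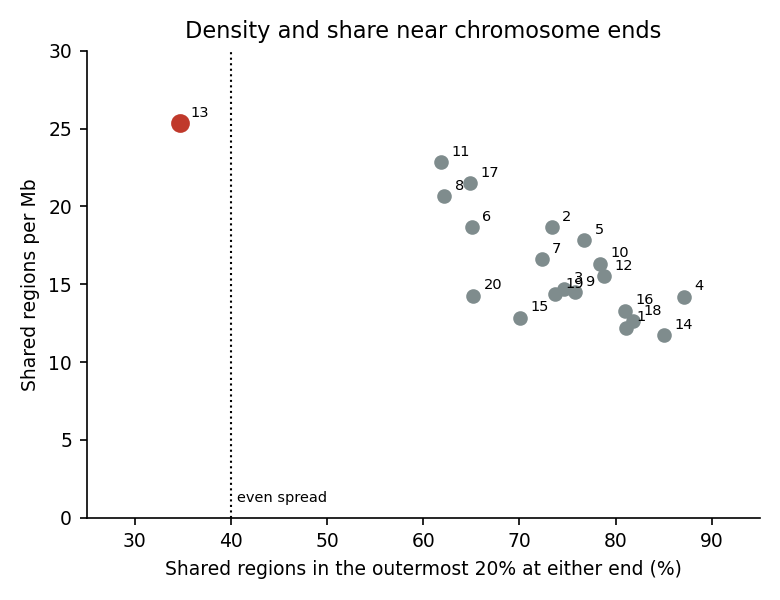
Shared regions per Mb (vertical axis) against the share of shared regions in the outermost 20% at either end (horizontal axis, %), 1 point per chromosome, with the number of the chromosome beside it and a dotted line at the 40% of an even spread. Chromosome 13 is the highest at 25.3 per Mb, with chromosome 11 next at 22.8. Its outer share of 34.7% stands apart from the other 19, which lie between 61.8 and 87.1%.

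The bins of chromosome 13 were filled more often than elsewhere, but its fullest bin was not the fullest of the genome. Its median bin held 25.5 shared regions, against 7 for the median chromosome among the others and 22 on chromosome 11, the highest of them. Bins with 20 or more shared regions were 28 of 46 (60.9%), against 33.3% on the median of the other chromosomes and 51.4% on chromosome 11. Bins with 40 or more were 14, against a median of 5 and at most 11 on the other chromosomes. The fullest bin, with 57, was exceeded on 5 other chromosomes, of which the highest held 63. The chromosome had 6 bins with no shared region, against 1 to 8 elsewhere.

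The longest unbroken row of bins at or above 8 shared regions, the median of all 956 bins of the genome, was 33 bins on chromosome 13, from 13 Mb to the end, or 71.7% of the chromosome. The longest row elsewhere was 24 bins on chromosome 8. On chromosome 13 the thinnest bin of the row, from 18 to 19 Mb, held 8 shared regions, exactly the bound. Within this row the mean was 34.2 regions per bin, and the same mean over the longest rows of the other chromosomes was 18.5 to 41.1 with a median of 31.9. With a bound of 12 regions the longest rows were 27 bins on chromosome 13 and 19 elsewhere. With a bound of 20 the order turned, at 15 bins on chromosome 13 and 19 elsewhere, since the thin bins inside the long stretch then broke it.

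**Figure D3:**
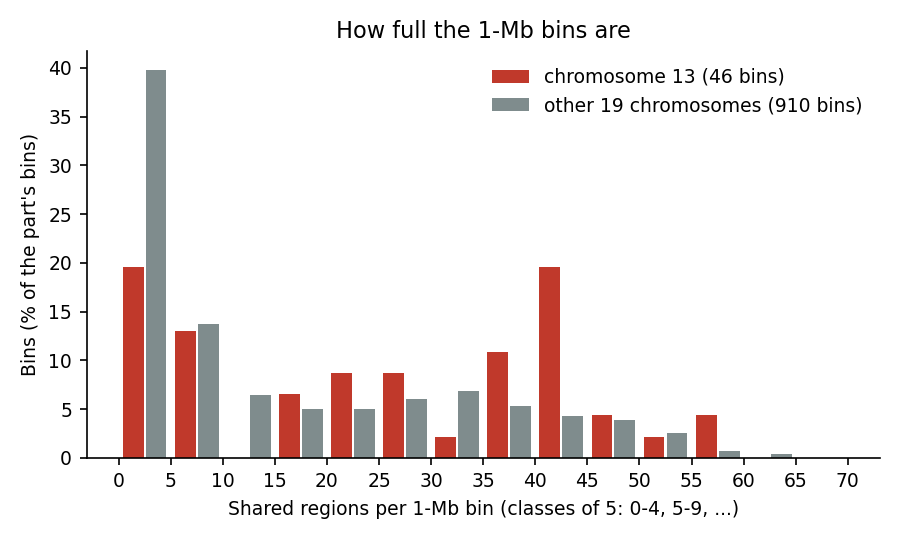
Share of 1-Mb bins (vertical axis, %) by the number of shared regions they held (horizontal axis, in classes of 5), for the 46 bins of chromosome 13 and the 910 bins of the other 19 chromosomes. Chromosome 13 has fewer bins in the emptiest class and more between 35 and 44, and its fullest bin, with 57, lies below the 63 of the fullest bin elsewhere.

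The widest gaps between neighbouring members all lay in the first part of the chromosome. The widest, of 4.77 Mb, separated the member from 5337765 to 5338188 from the member from 10107342 to 10107986. The second, of 2.60 Mb, lay between the member from 2735470 to 2735894 and the same member at 5337765, which thus stood alone between 2 gaps. This lone member had a fold enrichment of 4.38 and 5.62 with Ab1 replicates 1 and 2 and of 5.31 and 5.40 with Ab2, which is the number of fragments at the summit relative to the local background as the authors' peak caller gave it. All 4 values lay below the members' medians of 7.56, 6.08, 5.84 and 5.59 in those libraries. The third gap, of 1.22 Mb, ran from the member at 12123512 to the one at 13341897, which opens the long stretch. In the widest gap the lists held 13 and 8 peaks of Ab1 and 7 and 5 peaks of Ab2, in 15 merged regions of which none was shared.

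Of the 10 strongest members, 9 lay in the long stretch, between 15 and 41 Mb, and 1 in the thin beginning. Each library's fold enrichments were ranked over all shared regions of the genome and the 4 ranks averaged, so that these members stand high in each list by choice. The first, from 32211997 to 32212962, was number 3 of the genome, with a fold enrichment of 21.5 and 18.97 with Ab1 replicates 1 and 2 and of 17.3 and 17.0 with Ab2. Its summit held 161 and 171 fragments with Ab1 and 76 and 64 with Ab2, where the members' medians were 44 and 49 with Ab1 and 23 and 20 with Ab2. Its 4 summits lay within 81 bp, and a second shared summit was 1476 bp away.

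The second strongest, from 22502246 to 22502897, was eleventh of the genome. It had 19.5 and 16.8 with Ab1 and 16.7 and 15.1 with Ab2. The third, from 1631568 to 1632877, had 17.5 and 15.3 with Ab1 and 14.7 and 13.6 with Ab2. This member lay in a bin with 9 shared regions, in the first 3 Mb of the chromosome, so a thin bin also held a region of this strength.

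The fourth, from 22836405 to 22837394, lay in the same bin as the second and had 17.9 and 15.7 with Ab1 and 13.6 and 14.8 with Ab2. Its values with Ab2 stood in the opposite order to those of the third. The fifth, from 19397656 to 19399045, had 17.2 and 12.7 with Ab1 and 21.8 and 13.2 with Ab2, and in both antibodies replicate 1 was the higher. The sixth, from 37452894 to 37453730, had 22.7 and 12.7 with Ab1, the highest value of any member in Ab1 replicate 1, and 14.7 and 12.2 with Ab2. For this member the replicates of Ab1 differed more (mean 17.7 ± 7.11, SD, n = 2) than the antibodies did, whose means were 17.7 with Ab1 and 13.4 ± 1.74 with Ab2.

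The other 4 of the strongest 10 lay from 40639120 to 40640268, from 39812802 to 39813297, from 15463239 to 15464607 and from 34742886 to 34744605. Their mean fold enrichment was 14.1 to 15.6 with Ab1 and 12.6 to 14.7 with Ab2. The member at 15463239 differed most between replicates among these 4, at 15.6 ± 5.99 with Ab1 and 14.7 ± 3.30 with Ab2 (SD, n = 2 each). The member at 34742886 was the strongest in its bin, the second fullest of the chromosome. In the fullest bin, from 38 to 39 Mb, the strongest member ran from 38484919 to 38485454 and reached 13.1 and 10.3 with Ab1 and 8.95 and 9.62 with Ab2. In the third fullest, from 35 to 36 Mb, it ran from 35677018 to 35677626 with a mean of 13.3 ± 1.81 with Ab1 and 13.2 ± 0.348 with Ab2 (SD, n = 2 each).

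Members stood among the strongest regions of the genome about as often as other shared regions. Of them, 119 (10.2%, 8.63 to 12.1) were among the strongest 10% of all shared regions, where the share over the genome is 10% by definition. Of the strongest 100 regions of the genome 9 were members and of the strongest 1000, 75, while members are 7.51% of all shared regions. The 119 lay in 36 of the 46 bins, most in the bin from 35 to 36 Mb with 9 and in the bins from 34 to 35, 37 to 38 and 40 to 41 Mb with 7 each. In bins under 20 shared regions 9.71% of members were among the strongest 10%, and in bins of 40 or more 10.7%.

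The fullest bin also held the members with the most fragments of the chromosome, in a run with a high background. From 38798500 to 38857593, 59.1 kb, 8 members lay next to each other, and at each of them the local background recovered from the peak values was at least 2 times the members' median in all 4 libraries. This bound was chosen after the values were seen. The background of the 8 was 3.65 and 4.08 times the members' median with Ab1 replicates 1 and 2 and 3.42 and 3.48 times with Ab2, as medians. No other member of the chromosome passed the bound in all 4 libraries, and the members before and after the run, with summits at 38772835 and 38938921, had 0.824 to 1.26 and 0.828 to 0.889 times the median.

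Within the run, the member from 38849948 to 38850913 had 206 and 196 fragments at its summit with Ab1 and 106 and 90 with Ab2. The member from 38857075 to 38857593 had 178 and 188 with Ab1 and 118 and 104 with Ab2. No shared region of the other 19 chromosomes had more than 152 and 155 with Ab1 or 82 and 85 with Ab2. Their fold enrichment was 11.5 and 7.24 with Ab1 and 9.03 and 9.14 with Ab2 for the first, and 9.75 and 7.25 with Ab1 and 10.3 and 10.5 with Ab2 for the second. The weakest of the run, from 38804246 to 38804646, had 3.02 and 2.44 with Ab1 and 2.62 and 3.27 with Ab2 on 54, 60, 29 and 32 fragments. The 8 are 0.688% of the members, but they are neighbours in a single run and cannot be counted as independent regions. Elsewhere, 10 of the 14228 shared regions (0.0703%) passed the same bound, on 7 chromosomes, with at most 4 on any of them. The highest background in the run was 18.3 and 30.0 with Ab1 and 10.8 and 11.0 with Ab2. Shared regions on the other chromosomes reached higher values, at most 35.3 and 51.0 with Ab1 and 22.2 and 18.3 with Ab2. The part of the background in the 8 members of the run was not tested, and the bin holds 49 members without them.

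Fold enrichment over all members was close to that of shared regions elsewhere in each library. The median was 7.56 and 6.08 with Ab1 replicates 1 and 2 and 5.84 and 5.59 with Ab2, against 7.59 and 5.94 with Ab1 and 5.93 and 5.50 with Ab2 on the other 19 chromosomes. The ratio of these medians averaged 1.01 ± 0.0180 (SD, n = 4 libraries) and lay on either side of 1, at 0.995, 1.02, 0.985 and 1.02. In each library the median of chromosome 13 lay inside the range of the medians of the other chromosomes, for example 7.40 to 7.89 in Ab1 replicate 1. Members spanned 2.53 to 22.7 in that library, 2.05 to 18.97 in Ab1 replicate 2, 2.62 to 21.8 in Ab2 replicate 1 and 2.83 to 17.0 in Ab2 replicate 2. The summits of members held a median of 44, 49, 23 and 20 fragments, against 44, 48, 23 and 20 elsewhere.

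**Figure D4:**
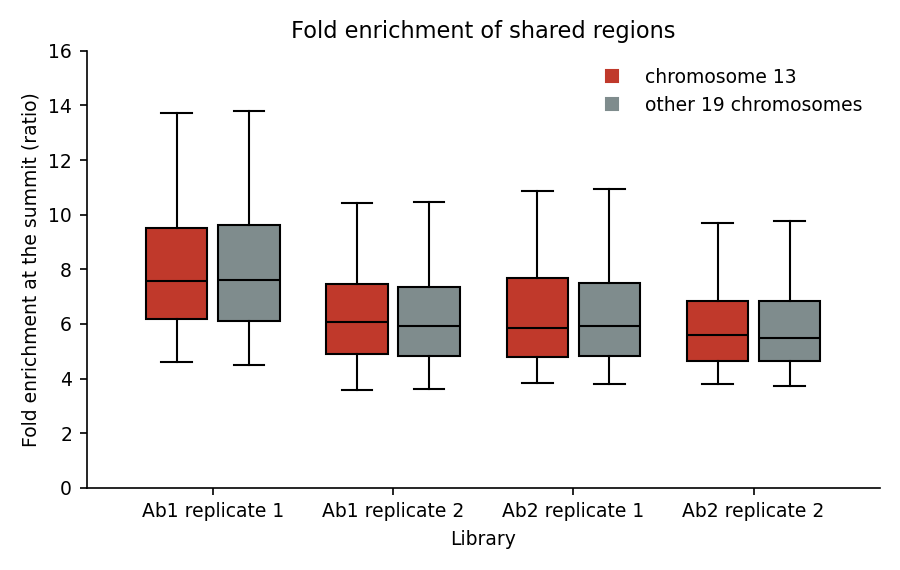
Fold enrichment at the summit (vertical axis, ratio) of the 1162 shared regions of chromosome 13 (left box of each pair) and the 14228 of the other 19 chromosomes (right box), by library. Boxes show the quartiles and median and whiskers the 5th and 95th percentiles, and the medians of each pair differ by a ratio of 0.985 to 1.02.

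Median fold enrichment was similar in thin and full bins. Members in bins under 20 shared regions had median fold enrichments of 7.58 and 6.03 with Ab1 and 5.70 and 5.59 with Ab2. Members in bins of 40 or more had 7.45 and 6.09 with Ab1 and 5.81 and 5.55 with Ab2. The 34 members of the first 13 Mb, where the chromosome is thin, had 7.38 and 6.13 with Ab1 and 5.41 and 5.52 with Ab2, and the 1128 of the long stretch 7.56 and 6.08 with Ab1 and 5.84 and 5.59 with Ab2. The Ab2 replicate 1 medians were the furthest apart of these.

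The order of members by strength was kept only in part between libraries. Over the 1162 members, the Spearman rho of fold enrichment was 0.622 between the Ab1 replicates and 0.494 between the Ab2 replicates. Between antibodies it was 0.733 for replicate 1 and 0.650 for replicate 2, above the 0.533 and 0.553 between antibodies of different replicate number. Libraries of the same number thus resembled each other more than replicates of the same antibody did. These are descriptions across regions, and over the other shared regions they were 0.497 to 0.707.

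Members were about as long as other shared regions. Their median length was 594.5 bp (quartiles 453 and 836), against 603 bp (463 and 825) elsewhere, and the medians of the other chromosomes lay between 581 and 628 bp. Regions of at least 1000 bp were 14.2% of members (12.3 to 16.3) and 14.3% of the others, and regions of at least 1500 bp 2.67% of members (1.89 to 3.76) and 2.99% of the others. A region is at least as long as its longest peak, so its length grows with the number of peaks merged. In 21.8% of members (19.5 to 24.2) a single list had several peaks, against 19.5% elsewhere.

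The longest member, from 24596765 to 24600102, spanned 3338 bp with 1 peak of Ab1 replicate 1, 4 of Ab1 replicate 2, 3 of Ab2 replicate 1 and 4 of Ab2 replicate 2. Its strongest peaks had 10.8 and 9.33 with Ab1 and 8.41 and 7.58 with Ab2, and their summits lay as much as 1342 bp apart, so different libraries had their strongest peak at different places in it. The next, from 44862267 to 44864877, had 2, 2, 4 and 3 peaks in the same order of libraries and summits within 76 bp. The third, from 21344234 to 21346475, had 1, 1, 3 and 3 peaks and summits 1218 bp apart. Across all members the 4 summits spanned a median of 81 bp, against 80 bp elsewhere, and lay within 100 bp in 61.4% of members (58.5 to 64.1) and 61.8% of the others.

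Neighbouring members lay closer together than shared regions elsewhere over the chromosome as a whole. The median distance from a member to the nearest shared summit was 6.90 kb (quartiles 2.34 and 17.1), against 7.89 kb (2.56 and 21.3) on the other chromosomes, and chromosome 17, at 5.68 kb, was the only one with a shorter median. Members with another shared summit within 2 kb were 257 (22.1%, 19.8 to 24.6), where all chromosomes together had 19.9%, so that share is near the background. The larger difference was in isolated regions. No shared summit lay within 50 kb of 4.56% of members (3.50 to 5.92), against 9.65% elsewhere, and none within 100 kb of 1.03% (0.592 to 1.80), against 4.29%.

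Within classes of bin fullness, members lay slightly further apart in the 2 fuller classes and closer together in the thinnest. In bins of 40 or more shared regions the median distance was 6.20 kb for the 644 members there and 5.43 kb for the other chromosomes. In bins of 20 to 39 it was 8.39 kb on chromosome 13 and 7.85 kb elsewhere. In bins under 20 it was 10.0 kb on chromosome 13 and 23.3 kb elsewhere. In this class chromosome 13 had only 103 members, in 12 bins, and the others had 2945 regions in 505 bins. Its bins were thus fuller on average in this class, and the 2 distances do not compare bins of equal fullness. Bins of 40 or more held 55.4% of members, against 35.5% of the shared regions elsewhere.

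**Figure D5:**
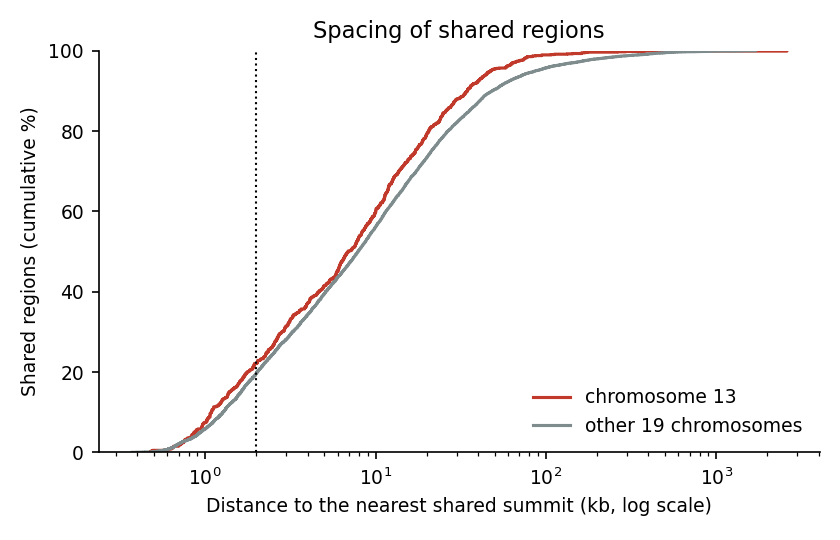
Cumulative share of shared regions (vertical axis, %) by the distance to the nearest shared summit (horizontal axis, kb, log scale), for chromosome 13 and the other 19 chromosomes, with a dotted line at 2 kb. The curves lie close together up to the medians of 6.90 and 7.89 kb and part at long distances, where 4.56% of members and 9.65% of other shared regions have none within 50 kb.

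Joined at steps of at most 2 kb, 103 pairs of members, 14 groups of 3 and 2 larger groups were formed. The other 19 chromosomes had 1132 pairs, 142 groups of 3 and 26 larger groups, of up to 7 summits. Regions in such groups were 257 of the 1162 members (22.1%) and 2806 of the 14228 others (19.7%), so grouping was near the background. The largest on chromosome 13, near its end, had 5 summits between 45541629 and 45546447. Fold enrichments there were 6.10 to 15.4 in Ab1 replicate 1 and 5.43 to 11.0 in Ab1 replicate 2. With Ab2 they were 4.05 to 15.0 in replicate 1 and 4.66 to 11.5 in replicate 2. The next had 4 summits between 39752190 and 39756252. The strongest member of the chromosome belonged to a group of 3 over 2459 bp. The lowest values in that group, taken in each library separately, were 5.83 and 3.64 with Ab1 and 3.79 and 4.17 with Ab2. In each library a strong and a weaker region thus lay within this group. These groups were chosen after their values were seen.

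Of all 4649 merged regions of chromosome 13, 24.99% (23.8 to 26.3) were shared, where 24.1% of the regions of the whole series were. The density of shared regions therefore went with a high density of regions of every kind, at 101 per Mb on chromosome 13 against 51.3 to 92.8 on the others. A peak in 1 library only was found in 1721 of them (37.0%, 35.6 to 38.4), against 36.8% elsewhere. Regions of both Ab1 libraries and neither Ab2 library were 840 of the 4649 on chromosome 13 and 11956 of the 64222 in the whole series, a similar share. Their density of 18.3 per Mb, against 12.5 per Mb over all chromosomes, thus went with that of regions of every kind.

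The rule required a peak in all 4 lists, and an Ab2 list was the missing one in most regions that missed it by 1 list. The Ab2 lists were the shorter ones, with 28010 and 21291 peaks against 59261 and 44181 with Ab1. The part of list length in this was not tested. On chromosome 13, 722 merged regions (15.5%, against 16.1% of the regions of the whole series) had a peak in exactly 3 lists. Of these, 488 lacked a peak of Ab2 replicate 2, 212 of Ab2 replicate 1, 19 of Ab1 replicate 2 and 3 of Ab1 replicate 1. The strongest of them, from 38660638 to 38661653, had 11.7 and 7.15 with Ab1 and 8.50 with Ab2 replicate 1, above the members' median in each, and no peak of Ab2 replicate 2. The next 4 of these, by mean fold enrichment, began at 11468202, 15811648, 22070552 and 18709671, had means of 7.41 to 7.86 over 3 libraries and likewise lacked only a peak of Ab2 replicate 2.

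The members just inside the rule had their weakest peak in an Ab2 list. The lowest −log10 q of any member was 2.17, where every list ends at 2, in Ab2 replicate 1 for the member from 25515201 to 25516085. That member had fold enrichments of 7.58 and 6.66 with Ab1 and 2.83 and 4.65 with Ab2, on 37, 48, 13 and 14 fragments. The next 4 began at 41193793, 32916729, 25353575 and 16680490, with a lowest −log10 q of 2.18 to 2.62, in Ab2 replicate 1 for the first and Ab2 replicate 2 for the other 3. At 11 to 17 fragments, the weakest summits of these 5 are those that counting error touches most.

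Each list by itself placed chromosome 13 first, both by number and by density of peaks. Ab1 replicates 1 and 2 had 4294 and 3183 peaks there and Ab2 replicates 1 and 2 had 2057 and 1598, which were 7.25% (7.04 to 7.46), 7.20% (6.97 to 7.45), 7.34% (7.04 to 7.66) and 7.51% (7.16 to 7.87) of the lists, while the chromosome spans 4.84% of the length of all 20. The densities were 93.6 and 69.4 peaks per Mb with Ab1 and 44.8 and 34.8 with Ab2. Chromosome 11 came next in every list, at 85.7, 65.0, 43.2 and 31.3. Members took up 27.7 and 39.9% of the Ab1 peaks on the chromosome and 63.4 and 81.5% of the Ab2 peaks.

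Ab1 gave a mean of 3738.5 ± 786 peaks on chromosome 13 and Ab2 a mean of 1827.5 ± 325 (SD, n = 2 each). The ratio was 2.04 (exact permutation test on the log2 scale, two-sided, p = 0.333, which is the lowest p possible with 2 libraries against 2), and Ab1 was higher in each replicate number, by 2.09 and 1.99 times. The same ratio on the other chromosomes was 2.03 to 2.18. The 4 lists differ in their number of peaks. Sequencing depth was not given in reads, and its part in this ratio was not tested.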

How the data were processed

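ChIP-seq peak lists of 4 libraries from soybean embryos were used, 1 list per library; groups and replicate numbers came from the sample titles. The submitters' processing notes name Bowtie 0.12.7 and MACS2, with no version of the second. Fold enrichment at the summit, a ratio, and its −log10 p and q were used as deposited by the authors; every q was at most 0.01. Intervals sharing at least 1 base were merged with Python 3.11.15 and pandas 2.3.3. A region's summit was that of its peak with the highest −log10 p, and its value in a library that of the library's peak with the highest −log10 p. The last peak in any list set a chromosome's length.

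Fragments and background at a summit were recovered from fold and p, taking the fold to be (fragments + 1)/(background + 1) and the p a Poisson upper tail, as in MACS2, and matched within 0.002 of −log10 p for 100% of peaks. The pile-up of Ab1 replicate 2 had to be divided by a scale of 0.881 for this. Read totals were not used here. Wilson intervals (95%) cover counting error only.

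Members, measures and alternatives were chosen with earlier results of these data known. Regions named are the 10 strongest, the 3 longest, the 5 with the lowest −log10 q, the 5 strongest of 3 libraries, those at the 3 widest gaps and the strongest of the 3 fullest bins; any others were chosen after their values were seen. The design text gives each biological replicate both antibodies, which pairs the numbers. Rank deviations of fold over the 1162 members correlated at r = 0.339 between same-numbered libraries. Merging and recovery were tested on simulated data.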

Additional observations from a re-analysis of the deposited data

How the results depend on the processing

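Of 69 alternatives, 56 kept a result and 13 moved it; only the ratio of Ab1 to Ab2 peaks could have been counted as reversed. Chromosome 13 had the highest density of the 20 in all 8 alternatives for density. A stricter −log10 q (5 or more), equal lists of 21291 peaks each and summits within 150 bp gave a median distance to the nearest shared summit of 9.88, 9.82 and 7.96 kb, and equal lists a ratio of median lengths to the other chromosomes of 1.01, against 0.986. A reciprocal overlap of at least 50% left 444 members at 9.68 per Mb, 22.2 kb apart. These settings leave fewer regions, which are further apart. Leaving out 1 library gave 1172 to 1651 members, 25.5 to 36.0 per Mb, distances of 5.05 to 6.88 kb, ratios of median fold of 0.996 to 1.02 and of length of 0.986 to 1.00, outer shares of 34.9 to 35.6%, a longest row of 33 bins and an Ab1 to Ab2 ratio of 1.76 to 2.37; requiring fewer lists adds regions. The outermost 10% and 30% at either end held 17.2% and 54.0% of members, and 0.5-Mb and 2-Mb bins gave 14 and 2 empty bins, by construction. The longest row was a measure chosen after seeing the data, like its alternatives. It fell to 15 bins with a bound of 20 regions, under the 19 elsewhere. With the stricter −log10 q and with equal lists, at a bound of 6 regions, it was 27 bins, against 24 and 19 elsewhere. The row was longer than on any other chromosome in 10 of 11 alternatives. With the replicate block the ratio of Ab1 to Ab2 peaks stayed 2.04 by its arithmetic (exact sign-flip test, p = 0.5, the lowest possible with 2 pairs). Sequence motifs and genes were planned but not run, since no genome of the files' build was used here. Summits of 20 to 49 fragments limit what can be said of weak members.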
